A study of Mus musculus with 6 samples.

Results

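The genes described here encode the mTOR complexes and their nearest regulators: Rictor, Mapkap1, Rptor, Mtor, Mlst8, Deptor, Tsc1, Tsc2, Rheb and Akt2. They are 10 of the 17991 genes measured in the liver of mice that lack Itpr2, which encodes a calcium channel of the endoplasmic reticulum opened by inositol trisphosphate. Rictor was chosen by its difference in signal between the genotypes on these same arrays, and the other 9 genes were added for their place in the pathway. The difference between knockout and wild type is given for these genes as a description; counts of them past a threshold stand beside the share of all genes and are not a test. Each gene was found through the transcript accession that the array gives for a probe; 15 probes named the 10 genes, and 13 of them, at least 1 for every gene, were bright enough to be used.

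Livers came from 3 wild-type and 3 Itpr2 KO mice, all C57Bl/6, killed at 23 months of age as part of an untreated survival cohort kept on a standard diet and free of specific pathogens. The mice are described as independent animals, and both genotypes shared strain, age and housing; the sources used here do not say how the Itpr2 allele was made, in which cells it is lost or which sex the mice were. RNA from each frozen liver was labelled with Cy3 and hybridised alone to an Agilent array of 44397 spots, so each array stands for 1 mouse. A level below is the log2 intensity of a probe minus the 75th percentile of its array, so that 0 marks a bright probe and -1 a signal lower by 1 log2 unit; levels of different probes are not set against each other, because probes differ in how well they bind.

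mTOR is a protein kinase that works in 2 assemblies. mTORC1, built around Raptor, responds to amino acids and growth factors and drives protein synthesis while holding back autophagy; the TSC complex restrains it by switching off the small GTPase Rheb. mTORC2, built around Rictor and SIN1, phosphorylates AKT and related kinases, and in liver it takes part in the response to insulin.

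The targeted gene was read first. The Itpr2 probe had levels of 3.04, 3.07 and 3.08 on the wild-type arrays and of 2.54, 2.38 and 2.20 on the knockout arrays, a log2 change (knockout minus wild type) of -0.69 ± 0.13 (SE). The genotypes did not overlap, but the difference missed the threshold in the limma fit across all genes (Benjamini-Hochberg adjusted p = 0.811), and the sources used here do not place the probe inside or outside the deletion, so it checks the labels only in part. Under normexp, an alternative way of removing background, the change was -1.25. Normexp met net signals as low as -9339 on knockout array 1 and -77185 on knockout array 2. A further run, normexp on floored signals, first raised net signals to the lowest percentile of the array. Genes with an unadjusted p under 0.05 (limma) numbered 5946 under normexp, 970 under normexp on floored signals and 1102 in the main fit. The normexp values given below thus depend on how low net signals were handled. In the main fit across all genes 1 of 17991 passed an adjusted p of 0.05, Mansc4, named here after its value was seen. It was lower in the knockout (log2 change -3.59 ± 0.17, SE). As it was above background on 3 wild-type and 0 knockout arrays, it was kept through the wild type alone. All 9 measured hepatocyte markers were well above background on every array, which fits the labelled tissue. Other markers were uneven between mice: all 12 skeletal muscle markers were above background on wild-type array 1 and knockout array 3, with list means of 2.10 and 2.20, against 4 of 12 and means from -6.24 to -6.10 on the other arrays. The 10 Kupffer cell markers, of the macrophages resident in liver, all had lower knockout means, with list means from 2.95 to 4.13 in the wild type and from 2.69 to 3.15 in the knockout, and none was below background. All 7 measured neutrophil markers had higher knockout means, with list means from -1.14 to -0.13 in the wild type and from -2.34 to 1.67 in the knockout. The part of these marker shifts in the results that follow was not tested, and in whole liver a change in the number of cells of a type cannot be told apart from a change in RNA per cell. The arrays lay on 2 slides: wild-type 1 and 2 with knockout 1 on slide 1, and wild-type 3 with knockout 2 and 3 on slide 2. In the value table deposited by the authors, the columns of knockout 2 and 3 matched the scanner values of knockout 3 and 2, which exchanges 2 mice of the same genotype and leaves the genotype difference untouched.

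Rictor, the scaffold that defines mTORC2, was the gene of the set with the largest difference between the genotypes. Its probe, A_52_P145412, read 91.9, 84.7 and 88.2 in processed intensity on wild-type arrays 1 to 3 and 139, 138 and 125 on knockout arrays 1 to 3. The lowest intensity called well above background was 5.69 to 6.76 over the arrays, so the probe was far from the detection limit on each. As levels, the wild-type arrays read -1.95, -1.98 and -1.91 and the knockout arrays -1.31, -1.30 and -1.02. Every knockout array was above every wild-type array, with a gap of 0.60 between the highest wild-type and the lowest knockout value. The wild-type values were tightly placed (mean -1.95 ± 0.035, SD, n = 3), while the knockout mean of -1.21 ± 0.17 (SD, n = 3) was drawn up by array 3, one of the arrays with muscle transcripts. In processed intensity knockout array 3 was the lowest of the knockout arrays. Its 75th percentile was 7.98 in log2 intensity, against 8.38 to 8.47 on the other arrays, and its level became the highest only after this scaling. The log2 change was 0.74 ± 0.13 (SE; 95% confidence interval 0.42 to 1.06), or 1.67-fold. These are the values for which the gene was chosen.

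The difference was present on each slide: 0.66 on slide 1 and 0.75 on slide 2. With both arrays that carried muscle transcripts left out it was 0.64, and leaving out 1 array at a time gave 0.64 to 0.79. With a gap of 0.60 between the genotypes, any such subset of the arrays must give a difference of at least 0.60. These values therefore describe its size and are no further support for the difference. Because a single probe reports Rictor, and the place of that probe in the transcript is unknown here, a change in one isoform cannot be told apart from a change in the whole gene.

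**Figure D1:**
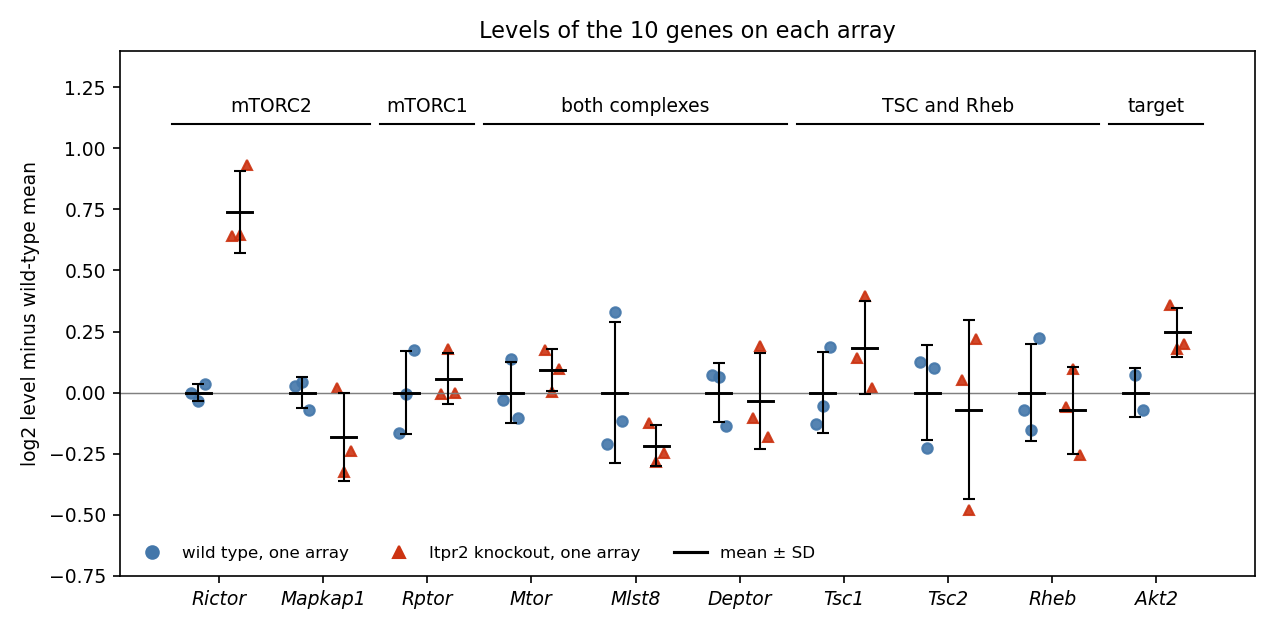
Levels of the 10 genes on each array, as log2 level minus the wild-type mean of the gene. Circles are wild-type mice, triangles Itpr2 knockout mice, and bars the mean ± SD (n = 3 per genotype; n = 2 for wild-type Akt2). The Rictor triangles all lie above its circles, and for the next 8 genes the genotypes overlap.

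Mapkap1 encodes SIN1, another subunit that only mTORC2 holds and the one that presents substrates to the kinase. Its wild-type levels were -0.42, -0.40 and -0.51, and its knockout levels were -0.42, -0.77 and -0.68. Knockout arrays 2 and 3 were the lowest and knockout array 1 lay among the wild type, so the genotypes overlapped. The log2 change was -0.18 ± 0.14 (SE; 95% confidence interval -0.52 to 0.15). The interval of the Mapkap1 change includes 0, and the direction was not settled: the value was -0.015 on slide 1, -0.11 without knockout array 2, -0.28 without knockout array 1 and 0.088 under normexp. Under normexp on floored signals the value was -0.12. A further Mapkap1 probe was below background on all 6 arrays and gives no value.

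Rptor encodes Raptor, the scaffold that defines mTORC1 and brings substrates to it. It read 0.95, 1.11 and 1.29 in the wild type and 1.12, 1.30 and 1.12 in the knockout. The highest and lowest arrays differed by about as much within the wild type as over both genotypes. The log2 change was 0.057 ± 0.14 (SE; 95% confidence interval -0.28 to 0.40). It was -0.32 under normexp, 0.079 under normexp on floored signals and -0.024 with arrays centred on their median. With 1 array left out it ranged from -0.026 to 0.14.

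The promoters of these 3 complex-specific subunits are shown as a description, and a link between their sequence and the levels was not tested. Each window is the 250 bases that end just before the annotated start of transcription in RefSeq (GRCm38.p6), 5′ to 3′ on the strand of the gene, with the CG dinucleotides in capitals. RefSeq windows were found for 9 of the 10 genes, all but Deptor. Rictor lies at chr15:6708131-6708380, Mapkap1 at chr2:34406521-34406770 and Rptor at chr11:119602655-119602904, all on the plus strand; of the overlapping Mapkap1 windows the first is shown.
Rictor: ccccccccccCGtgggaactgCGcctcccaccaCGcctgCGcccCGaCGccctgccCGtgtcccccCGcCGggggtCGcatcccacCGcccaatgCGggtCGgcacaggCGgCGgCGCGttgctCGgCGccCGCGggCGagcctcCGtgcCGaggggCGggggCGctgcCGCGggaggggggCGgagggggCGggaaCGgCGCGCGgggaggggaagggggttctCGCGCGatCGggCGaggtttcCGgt
Mapkap1: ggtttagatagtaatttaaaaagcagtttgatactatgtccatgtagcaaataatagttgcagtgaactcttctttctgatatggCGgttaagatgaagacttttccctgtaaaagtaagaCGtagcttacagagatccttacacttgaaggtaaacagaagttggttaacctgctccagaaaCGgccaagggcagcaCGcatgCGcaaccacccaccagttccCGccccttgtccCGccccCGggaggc
Rptor: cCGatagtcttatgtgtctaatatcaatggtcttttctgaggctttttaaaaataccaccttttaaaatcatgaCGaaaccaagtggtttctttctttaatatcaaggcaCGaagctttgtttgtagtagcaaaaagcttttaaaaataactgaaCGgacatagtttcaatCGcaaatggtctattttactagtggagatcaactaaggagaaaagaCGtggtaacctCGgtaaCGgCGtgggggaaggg
The Rictor window is 81.2% G or C and holds 40 CG dinucleotides, at percentile 99.2 for GC content among 32851 RefSeq windows of this length, whose medians are 52.4% and 6. The Rptor window is 37.6% G or C with 9 CG dinucleotides, at percentile 8.20 for GC content, and the Mapkap1 window is 46.4% G or C with 8. A high count is not particular to Rictor: the Rheb window holds 37 CG dinucleotides, at percentile 98.0 for that count, where Rictor is at 98.8. The log2 change of Rheb was -0.073. Of the 2 motifs searched on both strands, GTAAACA, bound by FOXO factors, occurs in the Mapkap1 window with its first base at -99 from the start, against 3.17% of all windows. CACGTG, the E-box bound by TFEB and related factors, occurs in the Rheb window at -96, against 6.02% of all windows. Neither set of letters occurs in the Rictor or Rptor window. A match of letters is a description of the sequence and says nothing about binding in these livers.

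The 2 complexes were compared within each array, after each gene had been centred on its mean over the 6 arrays, so that the scaling between arrays drops out. Rictor minus Rptor was -0.18, -0.37 and -0.48 in the wild type and 0.30, 0.13 and 0.59 in the knockout. The genotypes did not overlap, and the difference of means was 0.68 ± 0.16 (SE, n = 3 per genotype). Rictor minus Mapkap1, the contrast within mTORC2, was -0.49, -0.54 and -0.35 in the wild type and 0.16, 0.51 and 0.71 in the knockout, a difference of 0.92 ± 0.17 (SE). The Rictor values stood apart from those of its own partner and from those of the scaffold of the other complex. Both differences contain the Rictor values used in the choice and are not independent evidence.

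Taken as a pair, Rictor and Mapkap1 did not separate from Rptor. The mean of the pair minus Rptor was 0.065, -0.097 and -0.30 in the wild type and 0.22, -0.13 and 0.24 in the knockout. Knockout array 2 lay among the wild-type values, so the genotypes overlapped, and the difference of means was 0.22 ± 0.16 (SE). The size was not settled: it ranged from 0.13 to 0.34 with 1 array left out, the lowest without wild-type 3 and the highest without knockout 2, and was 0.81 under normexp and 0.12 under normexp on floored signals, where net signals were first raised to the lowest percentile of the array.

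**Figure D2:**
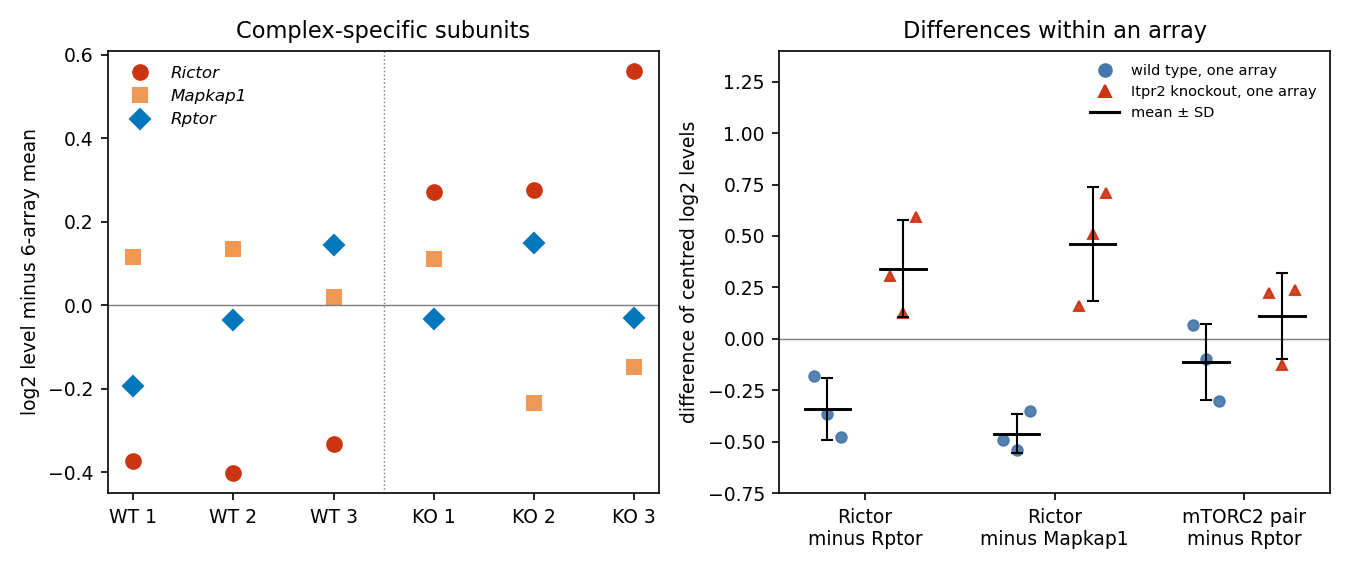
Subunits found in a single complex. Left, log2 level of Rictor, Mapkap1 and Rptor on each array minus the mean of the gene over the 6 arrays; right, differences of these centred values within an array, with the mean ± SD of each genotype (n = 3). Rictor minus Rptor and Rictor minus Mapkap1 separate the genotypes, and the mTORC2 pair minus Rptor does not.

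The subunits shared by both complexes did not separate the genotypes. Mtor, the kinase itself, read -1.16, -0.99 and -1.23 in the wild type and -0.95, -1.12 and -1.03 in the knockout, with a log2 change of 0.091 ± 0.13 (SE). Its values overlapped, and their spread about the genotype means (SD 0.11) was at percentile 10.9 of all genes, so the interval of the change, -0.22 to 0.40, is among the narrower ones. Mlst8 encodes a small subunit bound to the kinase domain. It read -0.039, 0.50 and 0.055 in the wild type and 0.049, -0.11 and -0.074 in the knockout, which is a log2 change of -0.22 ± 0.17 (SE). Wild-type array 2 was above the other 5 arrays, which lay within -0.11 to 0.055, and the genotypes overlapped. Without that array the change was -0.054. Deptor encodes a protein that binds mTOR and inhibits it. Its levels were 1.90, 1.89 and 1.69 in the wild type and 1.72, 2.02 and 1.65 in the knockout, with a log2 change of -0.033 ± 0.15 (SE). The highest and the lowest Deptor array were both knockout arrays. Under normexp the changes were 0.49 for Mtor, -0.085 for Mlst8 and -0.65 for Deptor. Under normexp on floored signals they were 0.027, -0.16 and -0.10.

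Upstream of mTORC1, the genes of the TSC complex and of Rheb overlapped as well. Tsc1, which stabilises the complex, read 0.81, 0.88 and 1.12 in the wild type and 1.08, 1.33 and 0.95 in the knockout, which is a log2 change of 0.18 ± 0.16 (SE). Knockout array 2 was the highest, and the other knockout arrays lay among the wild type. Tsc2, the subunit that switches Rheb off, read -4.35, -4.70 and -4.37 in the wild type and -4.42, -4.95 and -4.25 in the knockout, which is a log2 change of -0.069 ± 0.22 (SE). Its probe read 11.0 to 17.5 in processed intensity, close to the lowest intensity called well above background, and its spread (SD 0.29) was the widest of the 10 genes, at percentile 64.6 of all genes. The 95% confidence interval of its change runs from -0.59 to 0.45, and the value under normexp, 1.29, lies outside it. The value under normexp on floored signals, 0.098, lies inside it. Rheb, the GTPase that activates mTORC1, read 0.69, 0.61 and 0.98 in the wild type and 0.70, 0.86 and 0.50 in the knockout, which is a log2 change of -0.073 ± 0.16 (SE). A further Rheb probe gave -0.017 ± 0.16 (SE), with the genotypes overlapping on both, and a last one was below background on all 6 arrays. Tsc1 was -0.30 under normexp, 0.16 under normexp on floored signals and 0.079 without knockout array 2. With 1 array left out the changes of Tsc2 and Rheb took either sign, from -0.21 to 0.14 and from -0.16 to 0.038.

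Akt2 encodes the AKT kinase that is prominent in the insulin response of liver and that mTORC2 phosphorylates. Its brightest probe, A_55_P2066518, read 3.76 and 3.62 on wild-type arrays 2 and 3, where array 1 was left out because the scanner software marked the spot as an outlier, and 4.05, 3.87 and 3.89 on the knockout arrays. All 3 knockout values were above both wild-type values. The log2 change over these 5 arrays was 0.25 ± 0.15 (SE; 95% confidence interval -0.13 to 0.62), and 0.36 with the outlier spot kept. The probe A_55_P2025228 had all 6 values: 3.63, 3.55 and 3.62 in the wild type and 3.83, 3.86 and 3.85 in the knockout. The genotypes did not overlap on it, with a gap of 0.20 and a log2 change of 0.25 ± 0.11 (SE). The remaining probe, A_55_P2066523, read -0.85, -0.84 and -0.64 in the wild type and -0.42, -1.10 and -1.20 in the knockout, which is a log2 change of -0.13 ± 0.23 (SE). On that probe knockout array 1 was above all wild-type arrays and knockout arrays 2 and 3 below them, and the difference was 0.43 on slide 1 and -0.51 on slide 2. The 3 probes share a transcript accession and are not replicates of each other. Under normexp background correction the change of Akt2 was -0.42, and under normexp on floored signals it was 0.21. Its direction turned under normexp but not with the net signals floored. With arrays centred on their median the change was 0.12.

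**Figure D3:**
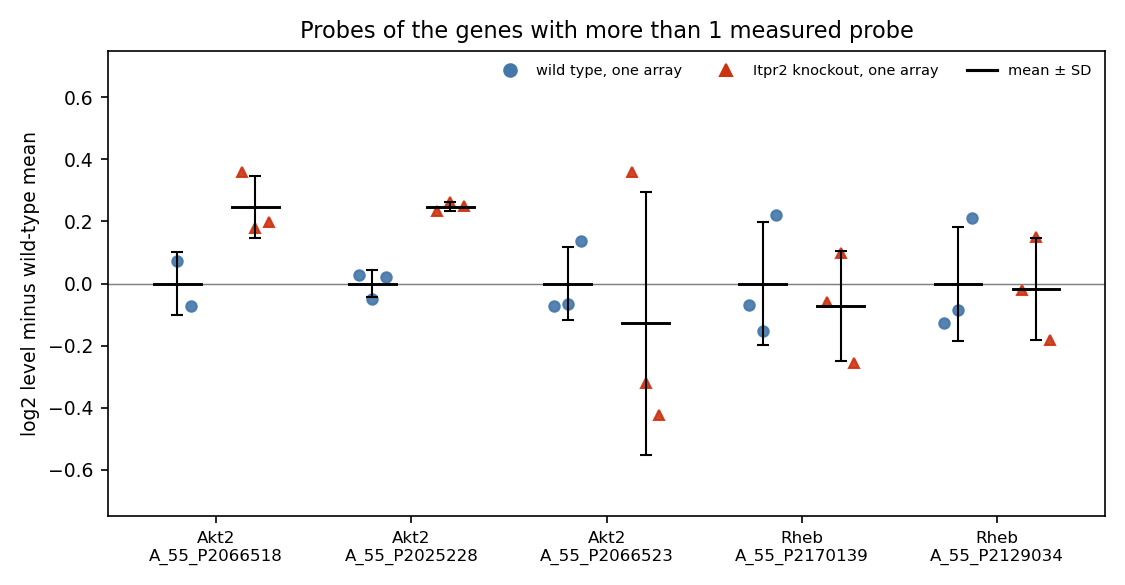
Probes of Akt2 and Rheb, the 2 genes with more than 1 probe above background. The axis is log2 level minus the wild-type mean of the probe; circles are wild-type and triangles knockout mice, with mean ± SD. The knockout values of 2 Akt2 probes lie above the wild type, those of A_55_P2066523 lie on both sides, and the 2 Rheb probes overlap.

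Counted over the set, 0 of the 10 genes passed the adjusted threshold in the limma fit, against 0.00556% of all genes tested, and 1 had an unadjusted p under 0.05, against 6.13%. Knockout means were higher for 5 genes and lower for 5, and the median log2 change was 0.012, against 0.022 over all genes. Of the 9 genes with a value on all 6 arrays, 1 had all knockout arrays above all wild-type arrays, where 6.9% of all genes did, and 0 had all of them below, where 5.15% did. Of the 10 changes, 5 turned sign under normexp (Mapkap1, Rptor, Tsc1, Tsc2 and Akt2). Under normexp on floored signals Mapkap1 was -0.12, Rptor 0.079, Tsc1 0.16 and Akt2 0.21, each with the sign of the main fit. Tsc2 was 0.098, against -0.069 in the main fit. As Rictor was chosen for this contrast, nothing is read from these shares.

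Slide is a comparison that played no part in the choice. With genotype in the model, the difference of slide 2 minus slide 1 ran over the 10 genes from -0.20 for Mapkap1 to 0.18 for Rptor, and was 0.10 ± 0.15 (SE) for Rictor. None of the 10 genes had an unadjusted p under 0.05 for slide, and the lowest adjusted p among them was 0.939 (limma, Benjamini-Hochberg). Over all genes 0 of 17991 passed the adjusted threshold for slide and 656 (3.65%) had an unadjusted p under 0.05. The spread within a genotype was below the median of all genes for 9 of the 10 genes, all but Tsc2.

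The wider pathway was covered by 11 lists, which together name 105 genes, the 10 included; 98 were measured. By the limma fit 0 of 98 passed the adjusted threshold in either direction, the lowest adjusted p being 0.811, and 8 had an unadjusted p under 0.05 (6.13% of all genes did). Means were higher in the knockout for 54 and lower for 44, with a median log2 change of 0.043; over all genes they were higher for 9728 of 17991. All knockout arrays lay above all wild-type arrays for 8 of the 96 with values on every array (6.9% of all genes), and below them for 3 (5.15% of all genes). With 1 array left out, the medians of the Rag and Ragulator, amino acid sensing, AMPK and stress, and insulin lists given next took either sign.

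Among the further subunits, Akt1s1, which encodes the mTORC1 inhibitor PRAS40, had a log2 change of -0.052 ± 0.13 (SE). The mTORC2 subunit genes Prr5 and Prr5l read 0.12 ± 0.23 and -0.14 ± 0.15 (SE), given here to complete the complex although the rule for naming genes did not select them. Of the 4 genes listed for mTORC2 alone, Rictor was the one on which the genotypes did not overlap, where 6.9% of all genes were higher without overlap. As Rictor was chosen for its difference, nothing is read from this. Telo2, which helps to assemble mTOR, had a log2 change of 0.18 ± 0.13 (SE). Tbc1d7, the smallest subunit of the TSC complex, was at -1.04 or above on every wild-type array and at -1.25 or below on every knockout array. Its log2 change was -0.33 ± 0.13 (SE), which became 0.25 under normexp and -0.18 under normexp on floored signals. Rhebl1, a relative of Rheb, had one of 0.31 ± 0.19 (SE), with 0.59 on slide 1 and -0.0012 on slide 2. Akt1s1 was 0.26 under normexp and -0.017 under normexp on floored signals.

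Genes that carry amino acid signals to mTORC1 were spread on both sides of 0. Of the 13 Rag and Ragulator genes 11 were measured, with a median of 0.065; Flcn, a regulator of Rag GTPases, had a log2 change of 0.43 ± 0.19 (SE) and its partner Fnip1 one of 0.26 ± 0.15 (SE), and the genotypes overlapped on both. Under normexp Flcn was -0.12 and Fnip1 -0.31, for each the only negative value among 22 alternatives. Under normexp on floored signals Flcn was 0.42. Of the 17 amino acid sensing genes 16 were measured, with a median of 0.026 and 2 without overlap in each direction, where 6.9% of all genes were higher and 5.15% lower without overlap. Nprl3, of the GATOR1 complex that restrains mTORC1, read 0.36, 0.62 and 0.19 in the wild type and 0.054, -0.33 and -0.049 in the knockout, which is a log2 change of -0.50 ± 0.17 (SE). Castor2, from the family of arginine sensors, had one of -0.53 ± 0.21 (SE), and -0.34 without knockout array 2. The 9 measured AMPK and stress genes had a median of 0.060 and none without overlap; Ddit4l, related to the stress-induced inhibitor REDD1, had a log2 change of -0.60 ± 0.46 (SE) and Prkag2, an AMPK subunit gene, one of -0.12 ± 0.15 (SE). Ddit4l had no settled direction: it was -1.61 on slide 1, 0.59 on slide 2 and 0.78 under normexp, and ran from -1.05 without wild-type array 3 to -0.31 without wild-type array 1. Prkag2 was -0.75 under normexp, its lowest value among 22 alternatives, and ran from -0.24 without knockout array 2 to -0.052 without knockout array 3.

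On the insulin side, the 13 genes from the receptor to PI3K had a median of -0.030. Insr, the insulin receptor, read 0.27, 0.35 and 0.30 in the wild type and 0.67, 0.78 and 0.50 in the knockout, with no overlap and a log2 change of 0.34 ± 0.13 (SE). Phlpp2, which encodes a phosphatase that removes phosphate from the mTORC2 site of AKT, read -1.71, -1.69 and -1.74 in the wild type and -1.21, -1.41 and -1.56 in the knockout, again with no overlap and a log2 change of 0.32 ± 0.14 (SE). The 9 kinases downstream of mTORC2 had a median of -0.10; Sgk1, a kinase activated through mTORC2, had a log2 change of 0.38 ± 0.19 (SE), with overlap; it was 0.22 without wild-type array 2 and -0.31 under normexp. The 9 of 12 measured FOXO genes and FOXO targets in liver had a median of 0.25 and none without overlap. That median was 0.11 without wild-type array 2, 0.16 without knockout array 2 and -0.31 under normexp. Insr was 0.086 under normexp, and Phlpp2 was 0.67 under normexp and 0.11 under normexp on floored signals. Foxo1, whose protein AKT keeps out of the nucleus, had a log2 change of 0.25 ± 0.15 (SE). The Foxo1 change was 0.16 without knockout array 2 and -0.32 under normexp. For Sgk1, Foxo1 and the median of the FOXO list, the normexp value was the only negative value among 22 alternatives.

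The 16 mTORC1 substrates had a median log2 change of 0.17, 11 with a higher and 5 with a lower knockout mean, and 3 had unadjusted p under 0.05, as did 6.13% of all genes. The median was 0.072 without wild-type array 3, 0.085 with arrays centred on their median and -0.22 under normexp. That last value was the only negative median among 22 alternatives. Ulk1, the kinase that starts autophagy and that mTORC1 holds inactive, read 2.90, 2.86 and 2.97 in the wild type and 4.04, 3.30 and 3.54 in the knockout. All knockout arrays were above the wild type, by a gap of 0.33, and the log2 change was 0.72 ± 0.20 (SE), with 1.16 on slide 1 and 0.45 on slide 2. Eif4ebp1, the translational repressor 4E-BP1, read 2.97, 2.77 and 3.03 in the wild type and 3.52, 3.41 and 3.31 in the knockout, with no overlap and a log2 change of 0.49 ± 0.13 (SE). Eif4ebp3, of the same family and named after its values were seen, had a log2 change of 0.50 ± 0.21 (SE) with a gap of 0.045. None of these passed the adjusted threshold, and under normexp background correction the values of Ulk1 and Eif4ebp1 were 0.019 and -0.19. Among 22 alternatives these were the lowest value of each gene, and the Eif4ebp1 value was the only negative value of that gene. These are transcript levels; the arrays carry no measure of phosphorylation or of kinase activity.

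**Figure D4:**
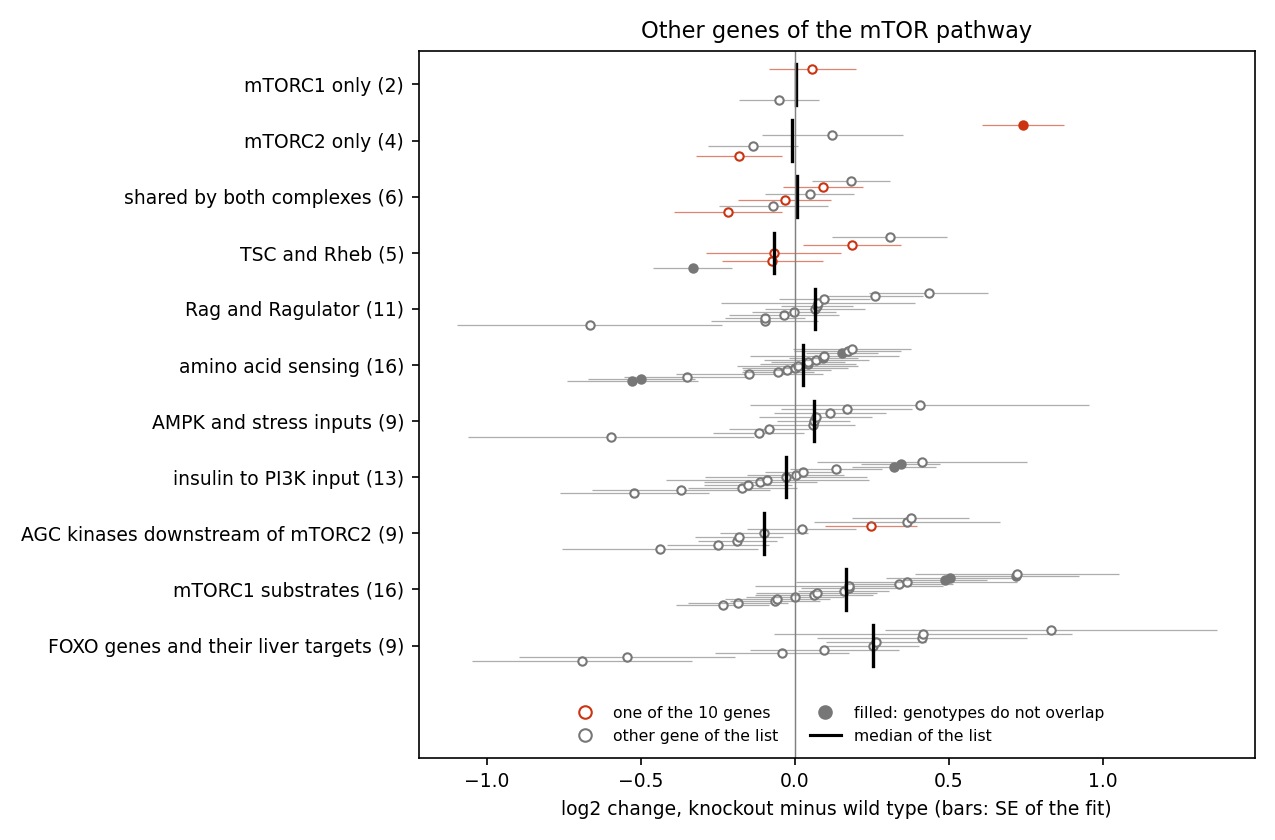
Log2 change, knockout minus wild type, of every measured gene in the 11 pathway lists (number measured in brackets), with bars for the SE of the fit. Open red rings are members of the set, filled points are genes on which the genotypes do not overlap, and black ticks are list medians. Rictor lies at 0.74, to the right of the other mTORC2 subunits, and the median ticks run from -0.10 for the kinases downstream of mTORC2 to 0.25 for the FOXO list.

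The genes whose pattern over the 6 arrays was most like that of Rictor were found by the root mean square difference between centred levels, among 13580 genes. Cyth3, an exchange factor for ARF GTPases, was nearest, at 0.069. It read -2.98, -2.99 and -2.94 in the wild type and -2.44, -2.33 and -1.92 in the knockout. Nyap1 followed at 0.085, then Ift81, a gene of intraflagellar transport, at 0.11, the zinc finger gene Zfp30 at 0.11 and B630019K06Rik at 0.12. Their log2 changes were 0.62 to 0.77, and 0.28 to 0.39 under normexp on floored signals. Since likeness to Rictor includes its genotype difference, that these genes differ follows from the choice. Akt2 was not compared, because its brightest probe has no value on wild-type array 1. Its probe A_55_P2025228, which has all 6 values, was not used here. Among the members compared, the nearest were Tsc1, 2847th of the genes with a difference of 0.35, and Mtor, 3062nd. Rptor was 4159th, Mapkap1 9060th and Mlst8 10059th.

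**Figure D5:**
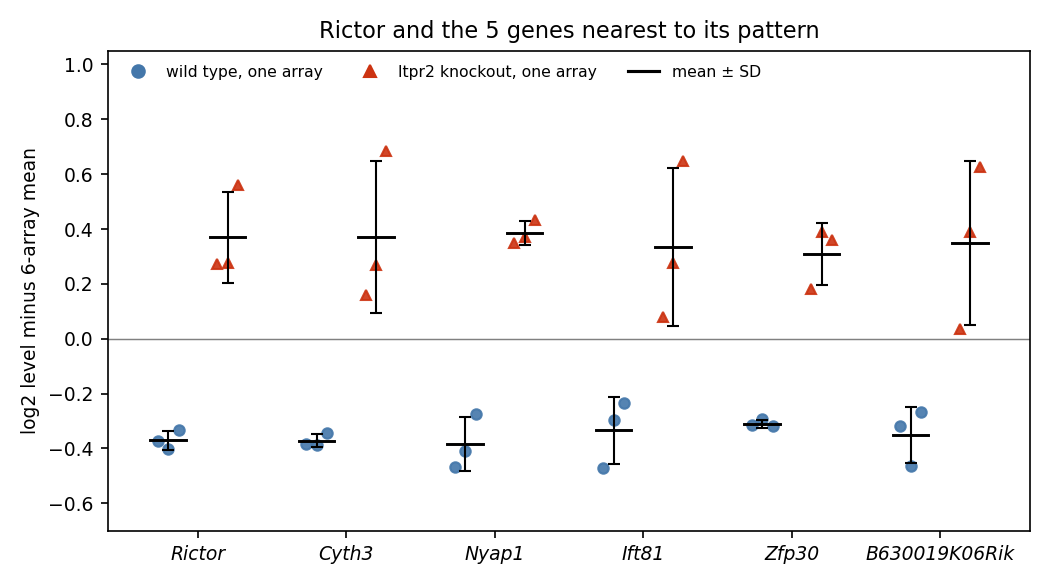
Rictor and the 5 genes with the most similar pattern, as log2 level minus the mean over the 6 arrays. Circles are wild-type and triangles knockout mice, with mean ± SD (n = 3); the genotypes do not overlap for any of the 6 genes, and knockout array 3 is the highest for all but Zfp30.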

How the data were processed

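The scanner tables hold the processed intensity of each spot on a linear scale, deposited by the authors as written by Agilent Feature Extraction, whose version is 11.5.1.1 in the file headers and 10.7.3.1 in the submitters' processing notes. The value table deposited by the authors holds log2 values whose columns have medians from -0.013 to 0.011; the table's centring and filter are not given in the sources used here, and it served as an alternative. From the scanner tables, control spots and 818 spots marked as outliers were left out, spots of a probe averaged, log2 taken and each array's 75th percentile subtracted. A probe was kept if well above background on all 3 arrays of a genotype, and the brightest probe stood for its gene. Genotypes were compared with limma 3.58.1 (R 4.3.3), two-sided, with Benjamini-Hochberg adjustment over 17991 genes; the method was tested on simulated data. The number of arrays, 3 per genotype, limits the precision. Promoters come from RefSeq (GRCm38.p6).

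Of each pathway list the text names genes past the threshold, otherwise the 2 with the smallest unadjusted p and any gene with a gap over 0.3 between the genotypes. A gene of the FOXO list that this rule selects is not reported here. The 10 genes, the lists and the tests were chosen with earlier results of these data known. Alternatives covered scaling, background correction, filters, probes, outliers, slide, replicate number, array weights and left-out arrays.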

Additional observations from a re-analysis of the deposited data

How the results depend on the processing

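The Rictor change was positive under all 22 alternatives, including those chosen after seeing the data (normexp on floored signals, and leaving out wild-type 1 with knockout 3). It was 0.90 under normexp and 0.52 under normexp on floored signals, and 0.64 to 0.79 with 1 array left out. Within a slide and with arrays left out, a positive change follows from the gap between the genotypes. The alternative filters, the mean of a gene's probes, the trend and robust prior and the replicate block cannot move the change of this single-probe gene. The positive sign under all these alternatives is no further support. The mTORC2 pair minus Rptor was 0.81 under normexp and 0.13 to 0.34 with 1 array left out. Normexp met net signals as low as -9339 on knockout 1 and -77185 on knockout 2. The count of genes past the threshold, 1 in all, was 0 under normexp, under normexp on floored signals, with probes above background on all 6 arrays, with the replicate block, and without wild-type 1 and knockout 3; with 1 array left out it was 0 to 2, with 2 without knockout 3 and 0 without wild-type 1 or 2 or knockout 1 or 2. The filter on all 6 arrays leaves out Mansc4, which was above background on 0 knockout arrays. The cause under the other alternatives was not tested. The pathway lists had 0 genes past the threshold under every alternative. Of 989 other values (single genes, differences and lists under an alternative), 877 moved by less than the replicate spread and 112 by more. Part of the 877 could not move, since some alternatives, such as the trend and robust prior, leave the change of a gene as it was. The 877 is therefore no measure of stability. Of the genes with an unadjusted p under 0.05 (limma), 56.5% were higher in the knockout, against 30.3% with arrays centred on the median and 82.7% under normexp.

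Deviations of same-numbered arrays correlated at -0.19, 0.042 and -0.28, and those of the other pairs at -0.15 to 0.30. The highest value was that of wild-type 1 with knockout 3, the arrays with muscle transcripts. Whether the replicate numbers pair the mice cannot be settled from so few arrays. With the number as a block, 1157 genes had an unadjusted p under 0.05 (limma) against 1102 without it. The Rictor change stayed at 0.74, as it must when every number holds a mouse of each genotype. Groups of 3 are too small for a check for outlying samples.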
